A study of Mus musculus with 6 samples.

Results

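The collagen gene family was examined in mouse embryonic stem cells treated to deplete the long noncoding RNA Panct1. Its members were the genes whose symbol is Col, a type number, a and a chain number, read from probe sets with exactly 1 symbol, and 42 genes were found among 18193 measured genes. Of the 44 such symbols in the RefSeq gene table of assembly GRCm38.p6, Col6a6 and Col28a1 had no probe set named for them. The 42 genes were read by 82 probe sets, and each gene was represented by its brightest probe set on average over the 6 arrays. They fell into 11 fibrillar collagens, 8 collagens of basement membranes (the type IV chains, Col15a1 and Col18a1) and 23 others.

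Oct4-Gip cells are embryonic stem cells that carry a reporter and a drug resistance gene under control of Oct4 sequences, and here they were grown with fetal bovine serum and the cytokine LIF. Both groups received esiRNA, an enzymatically cut pool of short double-stranded RNAs, at 800 ng to 60000 cells, and RNA was taken 72 hours later. The 3 Panct1 knockdown arrays received esiRNA against Panct1, and the 3 Luciferase control arrays received esiRNA against a gene that mouse cells do not carry. No probe set was named for Panct1, so its depletion was not checked here, and the labels do not say whether replicates were separate cultures.

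Collagens are proteins of 3 chains wound into a triple helix, with glycine repeated along each chain. Fibrillar collagens assemble into banded fibrils of connective tissue, type IV chains form the sheet-like network of basement membranes, and the remaining types decorate fibrils, anchor epithelia, form short networks or span the cell membrane. Chains are hydroxylated and folded in the endoplasmic reticulum with dedicated enzymes and a chaperone, secreted, trimmed, cross-linked and later broken down by matrix metalloproteinases. In the early embryo, type IV collagen is made from the blastocyst stage on, while abundant fibrillar collagen belongs to later mesenchyme.

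Some fibrillar collagens rose in the Panct1 knockdown, and no basement membrane collagen passed the test. Of 11 fibrillar genes 5 rose and 0 fell (45.5%), of 8 basement membrane genes 0 passed, and of 23 others 1 rose and 1 fell. In the whole family 7 of 42 genes passed (16.7%), against 24.2% of all 18193 genes, by limma at an adjusted p under 0.05. Rises were called for 6 collagens, where 12.9% of all genes rose, and a fall for 1, where 11.3% of all genes fell. The median log2 difference (knockdown minus control) was 0.13 for fibrillar, 0.03 for basement membrane and -0.05 for other collagens, with -0.02 over all genes. The difference between the classes was not tested. In bulk RNA, a change in the number of cells of a type and a change in RNA per cell cannot be told apart. Of 7 smooth muscle markers 4 also rose, as did 9 of 13 trophoblast markers and 3 of 12 fibroblast markers, where 12.9% of all genes rose, and their part in the collagen differences was not tested. Without Luciferase control replicate 3 the family's count was 4 and the fibrillar count 3.

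**Figure D1:**
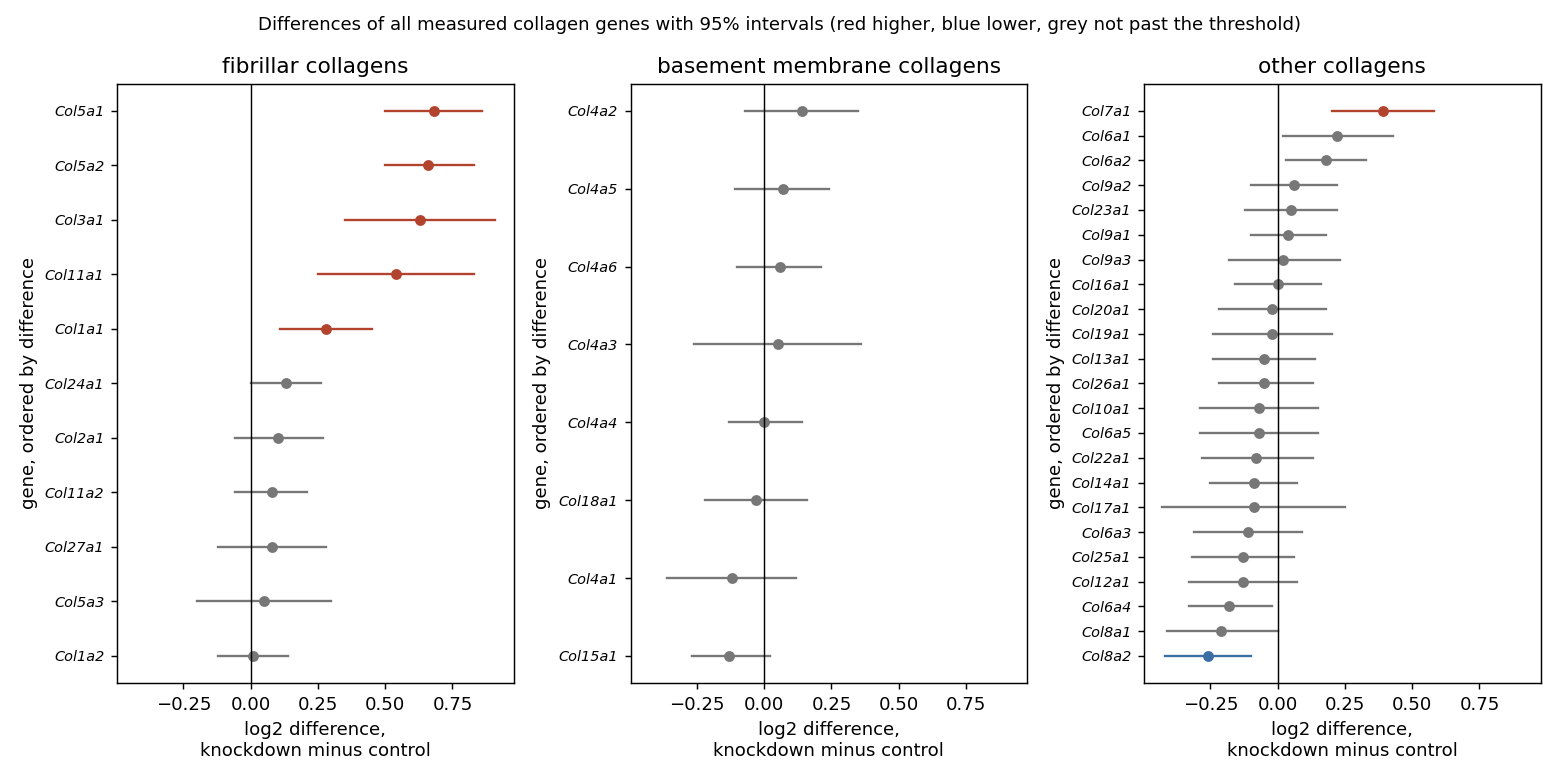
Log2 differences (knockdown minus control, x axis) of all 42 measured collagen genes in 3 panels, ordered by difference, with points for the estimate and lines for the 95% interval of limma; red marks genes called higher, blue lower and grey not past the threshold. The 5 red fibrillar genes lie between 0.28 and 0.68, while all 8 basement membrane genes lie between -0.13 and 0.14.

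Promoter sequences of the called genes are shown here because they let the genes that moved be compared base by base. RefSeq's promoter table for GRCm38.p6 held windows for 33 of the 42 genes, and for 5 of the 7 called ones. The 5 stretches below are given 5′ to 3′, all on the + strand, and end just before the most upstream annotated start, so that by this annotation they hold no transcribed base. Capitals mark the CCAAT box, the GC box GGGCGG and the TATA element TATAAA on either strand; the AP-1 element TGANTCA was also searched and was not found in these stretches. In Col8a2 neighbouring GC boxes overlap.
Col5a1 (chr2:27886175-27886380): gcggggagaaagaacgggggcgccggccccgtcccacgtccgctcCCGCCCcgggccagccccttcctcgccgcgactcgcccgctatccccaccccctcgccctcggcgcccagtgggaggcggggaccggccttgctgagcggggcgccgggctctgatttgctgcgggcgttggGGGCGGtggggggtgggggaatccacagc
Col3a1 (chr1:45311288-45311537): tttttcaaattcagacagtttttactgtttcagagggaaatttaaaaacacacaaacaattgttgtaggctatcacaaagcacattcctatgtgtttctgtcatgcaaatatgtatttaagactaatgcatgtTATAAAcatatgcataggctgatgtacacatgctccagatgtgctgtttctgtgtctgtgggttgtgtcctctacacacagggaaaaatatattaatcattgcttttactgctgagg
Col11a1 (chr3:114030290-114030478): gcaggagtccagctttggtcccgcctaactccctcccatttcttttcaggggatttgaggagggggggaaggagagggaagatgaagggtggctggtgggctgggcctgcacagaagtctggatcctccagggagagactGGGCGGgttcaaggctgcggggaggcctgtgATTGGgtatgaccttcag
Col7a1 (chr9:108953336-108953585): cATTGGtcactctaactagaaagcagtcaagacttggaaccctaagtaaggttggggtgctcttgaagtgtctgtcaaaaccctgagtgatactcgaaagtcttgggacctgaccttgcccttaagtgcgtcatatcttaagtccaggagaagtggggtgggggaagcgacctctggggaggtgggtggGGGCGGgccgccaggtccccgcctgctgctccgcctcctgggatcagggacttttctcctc
Col8a2 (chr4:126286544-126286793): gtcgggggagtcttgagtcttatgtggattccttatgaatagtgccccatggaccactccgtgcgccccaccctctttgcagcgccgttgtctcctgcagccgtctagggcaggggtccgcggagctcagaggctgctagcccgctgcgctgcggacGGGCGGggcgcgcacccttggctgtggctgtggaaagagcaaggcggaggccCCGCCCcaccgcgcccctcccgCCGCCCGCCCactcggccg

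The stretch of Col5a1 had a GC content of 77.7% and 2 GC boxes, and that of Col3a1 had 35.2%, a TATAAA and no GC box. Col11a1 and Col7a1 each had 1 CCAAT box and 1 GC box, and Col8a2, the one called gene that was lower, had 4 GC boxes. Over the 250 bases before the start, CCAAT occurred in 13 of 36 collagen windows (36.1%) and in 33.8% of all 32851 windows, and GGGCGG in 21 (58.3%) and 32.7%. TATAAA was found in 13.9% of collagen windows and 12.4% of all, and TGANTCA in 2.8% and 6.7%. The ratio of observed to expected CpG ran from 0.00 for Col3a1 to 0.78 for Col8a2 among the called genes. Over those same 250 bases their GC content ran from 35.2% to 76.4%.

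Col5a1 and Col5a2, whose chains make up type V collagen, the minor component that starts fibrils and limits their width, showed the largest differences in the family. Col5a1 had log2 signals of 8.44, 8.17 and 8.23 on the knockdown arrays and 7.63, 7.60 and 7.57 on the control arrays. It was 1.60-fold higher (log2 difference 0.68, SE 0.08, n = 3, limma adjusted p = 0.000409). Every knockdown array of Col5a1 lay above every control array, with a gap larger than the spread within either group. Col5a2 had 7.33, 7.18 and 7.13 in knockdown and 6.53, 6.52 and 6.60 in control. It was 1.58-fold higher (0.66, SE 0.07, limma adjusted p = 0.000259), again without overlap. Both kept their call in all 16 alternative settings run for them. Col5a3, the chain of a rarer type V trimer, did not pass, with a difference of 0.05 (95% interval -0.20 to 0.30, limma adjusted p = 0.798).

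Probe sets of the type V genes did not all move alike. For Col5a1 a second set was also higher, by 0.81 (limma adjusted p = 0.00294 over all probe sets), while the dimmest differed by -0.03, at 6.40 to 6.43 in knockdown and 6.40 to 6.49 in control. For Col5a2 the second set differed by 0.23 and did not pass (0.177). Its control arrays read 5.12 to 5.41 and its knockdown arrays 5.35 to 5.59, so the groups overlap there.

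**Figure D2:**
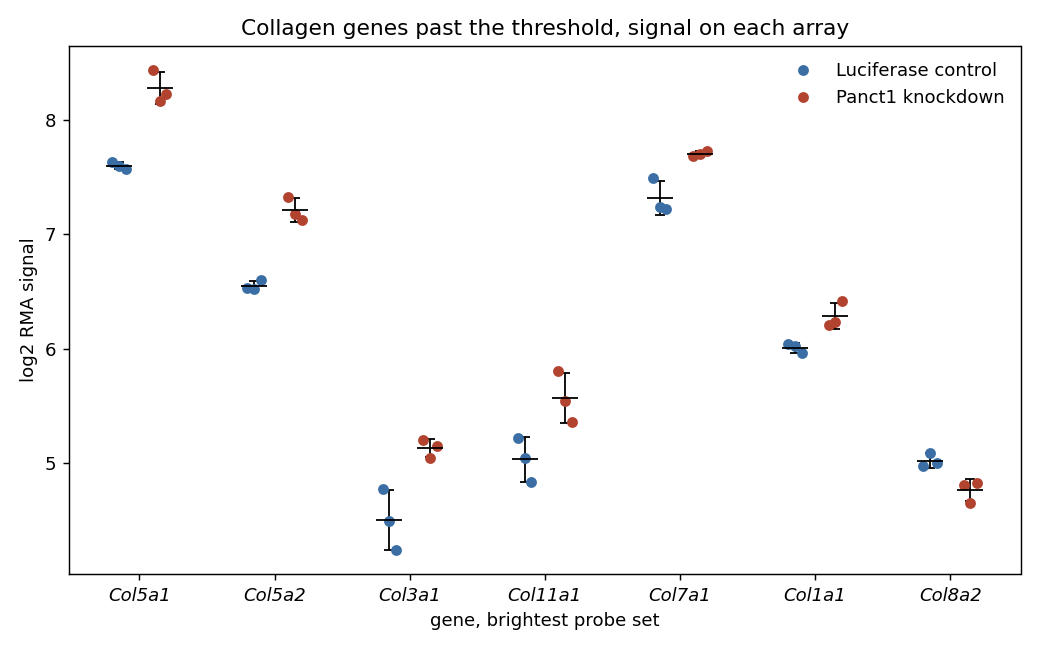
Log2 RMA signal (y axis) of the 7 collagen genes past the threshold on each of the 6 arrays, with points for arrays, long bars for group means and error bars for 1 SD (n = 3). In Col5a1 the knockdown arrays read 8.17 to 8.44 and the control arrays 7.57 to 7.63, and Col8a2 is the one gene whose knockdown arrays lie below its control arrays.

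Col3a1, whose chain forms the homotrimer of type III collagen in skin and vessels, read 5.20, 5.04 and 5.15 in knockdown and 4.77, 4.49 and 4.24 in control. It was 1.55-fold higher (log2 difference 0.63, SE 0.12, n = 3, limma adjusted p = 0.00557) and kept its call in all 15 settings run for it. The control values lay around the arrays' lower quartile (4.65 to 4.70 over all probe sets), so this rise starts from a signal near background. Its second set, at 3.52 on average, differed by 0.11 and did not pass. Col3a1 and Col5a2 are next to each other on chromosome 1 in the RefSeq table, with no protein-coding gene between them, and both rose.

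Col11a1, the type XI chain best known from cartilage and able to join type V chains, read 5.80, 5.54 and 5.36 in knockdown and 5.22, 5.04 and 4.83 in control. It was 1.45-fold higher (0.54, SE 0.13, n = 3, limma adjusted p = 0.0154), and its highest control array lay only just under its lowest knockdown array. Its second set rose by 0.65 (limma adjusted p = 0.00412 over all probe sets). The call was lost without Luciferase control replicate 3 (limma adjusted p = 0.0514; 0.00171 to 0.0514 over its settings).

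Col1a1, the main chain of type I collagen, the commonest collagen of the adult body, read 6.21, 6.23 and 6.42 in knockdown and 6.04, 6.02 and 5.96 in control. It was 1.21-fold higher (0.28, SE 0.07, n = 3, limma adjusted p = 0.0246). Its second set read 5.38 to 5.40 in knockdown and 5.20 to 5.47 in control, a difference of 0.08 with overlapping arrays (limma adjusted p = 0.596 over all probe sets). The rise lost its call when the replicate number was a block (0.0618), with the mean of its probe sets (0.0756) and without Panct1 knockdown replicate 3 or any one of the control arrays (0.0565 to 0.0767), and limma's adjusted p ran from 0.0148 to 0.0767 over its settings. Its partner chain Col1a2 read 5.87 to 5.90 in knockdown and 5.85 to 5.89 in control, a difference of 0.01 (95% interval -0.12 to 0.14, limma adjusted p = 0.902). A dimmer set for Col1a2, at 4.42 on average, differed by 0.31 without passing (limma adjusted p = 0.144 over all probe sets), so the type I pair was not read alike by all sets.

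The other fibrillar genes did not pass. Col2a1, the main cartilage collagen, differed by 0.10 (95% interval -0.06 to 0.27), Col11a2 by 0.08 (-0.06 to 0.21) and Col27a1 by 0.08 (-0.12 to 0.28). Col24a1, at 3.06 to 3.22 below the lower quartile on all 6 arrays, differed by 0.13. For Col11a2 and Col24a1 knockdown and control arrays were still separate. For Col11a2 this was only just so, at 6.06 to 6.16 in knockdown and 6.01 to 6.05 in control. In all, 7 of 11 fibrillar genes had knockdown arrays wholly above control arrays, where 18.7% of all genes did. For Col27a1 the brighter set read 8.25 to 8.44 in knockdown and 8.14 to 8.39 in control, whereas the dimmer set read 6.64 to 7.00 and 6.29 to 6.41 and was higher by 0.47 (limma adjusted p = 0.0128 over all probe sets).

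Among basement membrane collagens, Col18a1, whose C-terminal fragment is endostatin, had the strongest signal of the family and hardly differed. It read 11.36, 11.34 and 11.14 in knockdown and 11.36, 11.19 and 11.38 in control, a difference of -0.03 (95% interval -0.22 to 0.16, limma adjusted p = 0.845). Its second set differed by -0.05. The groups overlap for this gene.

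Col4a1 and Col4a2 encode the chains of the ubiquitous type IV network. Col4a1 read 9.31, 9.09 and 8.93 in knockdown and 9.29, 9.08 and 9.31 in control, a difference of -0.12 (95% interval -0.36 to 0.12, limma adjusted p = 0.493). Col4a2 read 8.33, 8.00 and 8.02 in knockdown and 8.04, 7.93 and 7.96 in control, a difference of 0.14 (-0.07 to 0.35, limma adjusted p = 0.345). The groups overlap for both. The second set of Col4a1 read 7.65 to 7.91 in knockdown and 7.93 to 8.06 in control, a difference of -0.23 that did not pass (limma adjusted p = 0.112 over all probe sets). These genes are arranged head to head, and their promoter windows (chr8:11312777-11313076 on the - strand and chr8:11312555-11312854 on the + strand) share 78 bases.

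The type IV chains of restricted tissues, Col4a3 to Col4a6, differed by 0.05, 0.00, 0.07 and 0.06, and Col4a4 lay below the lower quartile on all 6 arrays. Col15a1, a relative of Col18a1, differed by -0.13 (95% interval -0.27 to 0.02, limma adjusted p = 0.205), with 5.29 to 5.40 in knockdown and 5.41 to 5.52 in control. By limma 0 of the 8 basement membrane genes passed, where 24.2% of all genes did. An unadjusted p under 0.05 was found for 0 of them and for 6375 of all 18193 genes. One exception among the probe sets was the dimmer set of Col4a5, which read 4.13, 4.41 and 4.13 in knockdown and 3.26, 3.50 and 3.62 in control, higher by 0.76 (limma adjusted p = 0.00258 over all probe sets). All these values lie below the arrays' lower quartile. With the mean of the probe sets of each gene, Col4a5 passed (0.42, limma adjusted p = 0.00301; 0.00301 to 0.92 over its settings).

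Col7a1, which forms the anchoring fibrils that tie stratified epithelia to the tissue beneath, was the one gene of the other types that rose. It read 7.69, 7.70 and 7.73 in knockdown and 7.49, 7.24 and 7.22 in control, 1.31-fold higher (0.39, SE 0.08, n = 3, limma adjusted p = 0.00839). The knockdown arrays were tightly grouped, and the spread lay in the control arrays. Col8a2, a short-chain collagen of hexagonal networks such as that under the corneal endothelium, read 4.81, 4.65 and 4.82 in knockdown and 4.97, 5.09 and 5.00 in control. It fell by 0.26 (SE 0.07, n = 3, limma adjusted p = 0.0295), at a signal close to the lower quartile. This call was lost in a fit blocked by replicate number (limma adjusted p = 0.0788), over all probe sets (0.0521), without Panct1 knockdown replicate 2 (0.12) and without any one control array (0.0575 to 0.0904), with 0.00825 to 0.12 over its settings. Its partner Col8a1 differed by -0.21 (95% interval -0.41 to 0.00, limma adjusted p = 0.139).

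Type VI collagen forms beaded filaments near cell surfaces. Col6a1 and Col6a2, neighbours on chromosome 10, differed by 0.22 and 0.18 (limma adjusted p = 0.108 and 0.0928), and their 95% intervals, 0.02 to 0.43 and 0.03 to 0.33, lay above 0. Col6a2 read 7.75 to 7.91 in knockdown and 7.63 to 7.72 in control, so its arrays did not overlap. Col6a3, the large chain of the usual filament, differed by -0.11. Col6a4 read 6.46 to 6.51 in knockdown and 6.55 to 6.74 in control, a difference of -0.18 (95% interval -0.33 to -0.02, limma adjusted p = 0.105), and its second set differed by -0.19, with separate arrays on both sets. It passed in 3 of 16 settings (limma adjusted p = 0.0453 to 0.298 over them), 1 of them without Luciferase control replicate 2. Col6a1 passed without Luciferase control replicate 1 (0.31, limma adjusted p = 0.0421; 0.0421 to 0.277 over its settings). Col6a5 read at most 3.89 on any array, below the lower quartile.

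Of the 9 measured fibril-associated collagens, which coat fibrils without forming them, 0 passed in limma, where 24.2% of all genes did. An unadjusted p under 0.05 was found for 0 of them and for 6375 of all 18193 genes. Their differences ran from -0.13 (Col12a1) to 0.06 (Col9a2), the others being Col9a1, Col9a3, Col14a1, Col16a1, Col19a1, Col20a1 and Col22a1. The dimmer set of Col9a1 was higher (5.44 to 5.65 against 5.05 to 5.18, by 0.44, limma adjusted p = 0.00599 over all probe sets). For Col22a1 the dimmest of 3 sets was higher (4.75 to 4.89 against 4.47 to 4.60, by 0.29, limma adjusted p = 0.0284 over all probe sets). Its middle set read 4.91 to 5.12 in knockdown and 5.17 to 5.22 in control, a difference of -0.18 the other way that did not pass (limma adjusted p = 0.167 over all probe sets). Of the transmembrane collagens, Col13a1, Col17a1, Col23a1 and Col25a1, which are not secreted as fibrils, 0 of 4 passed in limma (24.2% of all genes). Their differences ran from -0.13 to 0.05, and 0 had an unadjusted p under 0.05. Col10a1, the collagen of hypertrophic cartilage, differed by -0.07, and Col26a1 by -0.05.

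Signal strength and probe sets bear on all of these values. In 35 of the 42 genes every array lay above its lower quartile, in 4 every array lay below it, and in 3 some did. Of the 82 probe sets 12 were higher and 0 lower by limma adjusted over all probe sets (14.6% called, the same share as among all 45037 probe sets, of which 7.82% were higher). Of 27 genes with several sets 9 had at least 1 called set, a share near the 31.9% among all genes with several sets, and Col11a1 was the one gene with every set called. For Col4a5, Col9a1, Col22a1 and Col27a1 a dimmer set was called and the brightest was not. With the mean of the probe sets of a gene, Col9a1 and Col27a1 passed too (0.24 and 0.27, limma adjusted p = 0.0122 and 0.0153). Knockdown and control arrays were separate for 12 of 42 genes (against 38.3% of all genes), in 9 of them with knockdown higher (18.7% of all) and in 3 with knockdown lower (19.6% of all).

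**Figure D3:**
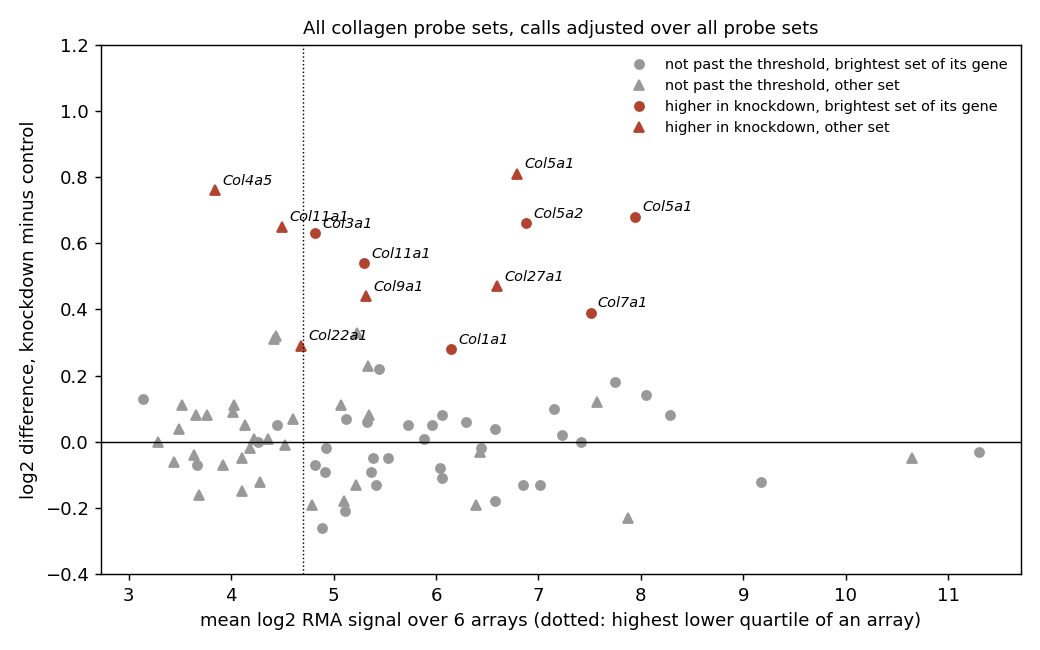
Log2 difference (knockdown minus control, y axis) against mean log2 RMA signal over 6 arrays (x axis) for all 82 collagen probe sets, with circles for the brightest set of a gene and triangles for its other sets; red marks the 12 sets called higher and the dotted line the highest lower quartile of an array (4.70). The called sets lie between 0.28 and 0.81, and no set brighter than that of Col5a1 (7.94) was called.

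Genes that fold and modify collagen chains went both ways. Of 21 measured genes of this list 3 rose and 4 fell (33.3%, against 24.2% of all genes), with a median difference of 0.03. Serpinh1, the chaperone Hsp47 that binds the collagen triple helix, read 9.11, 9.16 and 9.15 in knockdown and 8.25, 8.27 and 8.35 in control. It was 1.80-fold higher (0.85, SE 0.06, n = 3, limma adjusted p = 3.21e-05), and its second set rose by 1.10. P3h2, a prolyl 3-hydroxylase that acts on type IV chains among others, rose from 6.32 ± 0.12 (SD, n = 3) to 7.10 ± 0.10, and Plod2, the lysyl hydroxylase of the chain ends, rose by 0.54 (limma adjusted p = 0.00769).

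Among the synthesis genes that fell were parts of the prolyl 3-hydroxylase complexes. Crtap, the cartilage-associated protein that holds the complex with P3h1 together, read 10.17, 10.08 and 10.03 in knockdown and 10.95, 10.80 and 10.92 in control, 1.74-fold lower (SE 0.07 on the log2 scale, limma adjusted p = 8.9e-05). P3h1 itself fell by 0.29 (limma adjusted p = 0.0219), but lost its call in 6 of 16 settings (0.00532 to 0.0725 over them), among them without Panct1 knockdown replicate 2 (0.0725), Panct1 knockdown replicate 3 (0.0655), Luciferase control replicate 1 (0.0703) and Luciferase control replicate 3 (0.0631). P3h4, a non-enzymatic relative in the complex with P3h3, fell by 0.70 (limma adjusted p = 0.000193) and Sec24d, a coat protein of the vesicles that carry procollagen, fell by 0.31 (0.00765). Ppib, the cyclophilin of the Crtap complex, read 12.51 to 12.59 in knockdown and 12.47 to 12.54 in control, and P4hb, the shared subunit of prolyl 4-hydroxylases, differed by 0.03. The catalytic subunits P4ha1 and P4ha2 differed by 0.18 and 0.28 without passing (limma adjusted p = 0.101 and 0.0735). Colgalt1 and Plod1, also in this list, differed by -0.22 and -0.25 without passing (0.0631 and 0.0826). A dimmer set of each was called lower, with differences of -0.33 and -0.30 (limma adjusted p = 0.0184 and 0.0433 over all probe sets).

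Of 16 measured genes that trim, link or arrange collagen outside the cell 3 rose and 1 fell (25%, a share near the 24.2% of all genes), with a median difference of 0.01. Pxdn, peroxidasin, which cross-links type IV networks, read 9.61, 9.86 and 9.86 in knockdown and 8.66, 8.67 and 8.88 in control. It was 2.06-fold higher (1.04, SE 0.09, n = 3, limma adjusted p = 9.69e-05), the largest difference in the 4 lists, with no overlap of arrays. Bmp1, the protease that removes the C-propeptide of fibrillar chains, rose by 0.54 (limma adjusted p = 0.000369), but its other sets differed by 0.04 and -0.28, and with the mean of its probe sets it did not pass (0.10, limma adjusted p = 0.276; 0.000141 to 0.276 over its settings). Bgn, the proteoglycan biglycan, rose by 0.39, losing its call without Panct1 knockdown replicate 3 (limma adjusted p = 0.0518) or Luciferase control replicate 2 (0.0534; 0.00398 to 0.0534 over its settings). The other sets of Bgn differed by 0.14 and 0.19 without passing (limma adjusted p = 0.408 and 0.172 over all probe sets). Pcolce2, an enhancer of that protease, fell by 0.46 (limma adjusted p = 0.00261), while its paralogue Pcolce differed by -0.01. Lysyl oxidases, which cross-link fibrils, did not pass: Lox differed by 0.07, Loxl1 by 0.11, Loxl3 by 0.11 and Loxl4 by -0.04. A dimmer set for Loxl4 was higher by 0.48 (limma adjusted p = 0.00866 over all probe sets).

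Of 16 measured genes of collagen breakdown 6 rose and 2 fell (50%, against 24.2% of all genes, of which 12.9% rose and 11.3% fell), with a median difference of 0.06. Mmp14, the membrane-bound collagenase, read 8.36, 8.39 and 8.29 in knockdown and 7.82, 7.70 and 7.93 in control, and Mmp2, the gelatinase it activates, 8.91, 8.96 and 8.91 against 8.26, 8.46 and 8.48. Both were 1.44-fold higher (limma adjusted p = 0.0011 and 0.00112) and did not overlap. Other sets of Mmp14 differed by 0.39 and 0.08 (limma adjusted p = 0.0105 and 0.548 over all probe sets). Timp2, the inhibitor that also presents Mmp2 to Mmp14, rose by 0.63 (limma adjusted p = 0.0012), Timp3 rose by 0.33 (0.0216) and Timp1 fell by 0.40 (0.0204). Other sets of Timp2 were higher by 0.40 and 0.69 or differed by -0.11, -0.08 and -0.15 without passing. Its call was kept in all 16 settings. Mrc2, the receptor that takes up collagen fragments, rose by 0.47 (limma adjusted p = 0.00286), Ctsb, a lysosomal protease, by 0.26 (0.0298), and Mmp3, at 4.60 to 4.92 near the lower quartile, fell by 0.23 (0.0263). Other sets of Ctsb differed by 0.13, -0.02, 0.13 and -0.22 without passing. Adjusted over all probe sets, its brightest set did not pass either (limma adjusted p = 0.0523).

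Some of these breakdown calls were lost when 1 array was left out or when the probe sets of a gene were averaged. Calls for Ctsb, Mmp3, Timp3 and Timp1 were lost in 9 of 16, 8 of 15, 6 of 16 and 3 of 16 settings, with limma adjusted p up to 0.573, 0.111, 0.0807 and 0.0775. Timp1 lost it without Luciferase control replicate 1 (0.0775) or 3 (0.0611), and Timp3 when replicate 1 or replicate 2 of either group was left out (0.055 to 0.0807). For Ctsb this held without any one array other than Panct1 knockdown replicate 3, and for Mmp3 without any one array other than Panct1 knockdown replicate 1. The second set of Mrc2 differed by -0.20, and with the mean of its sets the call was lost (limma adjusted p = 0.159; 0.000651 to 0.159 over its settings).

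Among 9 measured collagen receptors 2 rose and 0 fell, with a median difference of 0.03. That is 22.2%, a share near the 24.2% of all genes that passed, while 12.9% of all genes rose. Ddr1, the discoidin domain receptor tyrosine kinase of epithelia, read 11.00, 11.10 and 11.11 in knockdown and 10.42, 10.37 and 10.52 in control, 1.55-fold higher (limma adjusted p = 0.000256). Itga1, the integrin chain that prefers type IV collagen, was higher by 0.74 (limma adjusted p = 0.00565) from 4.19 ± 0.23 (SD, n = 3), below the lower quartile, and lost its call with the mean of its probe sets (0.0745; 0.00226 to 0.0745 over its settings). Its partner Itgb1 differed by 0.20 (limma adjusted p = 0.0594) and passed in 4 of 16 settings (0.0341 to 0.818 over them), 1 of them without Luciferase control replicate 2. A second Itgb1 set of like signal was higher by 0.24 (limma adjusted p = 0.0469 over all probe sets). Ddr2, the receptor of mesenchymal cells, differed by -0.10.

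**Figure D4:**
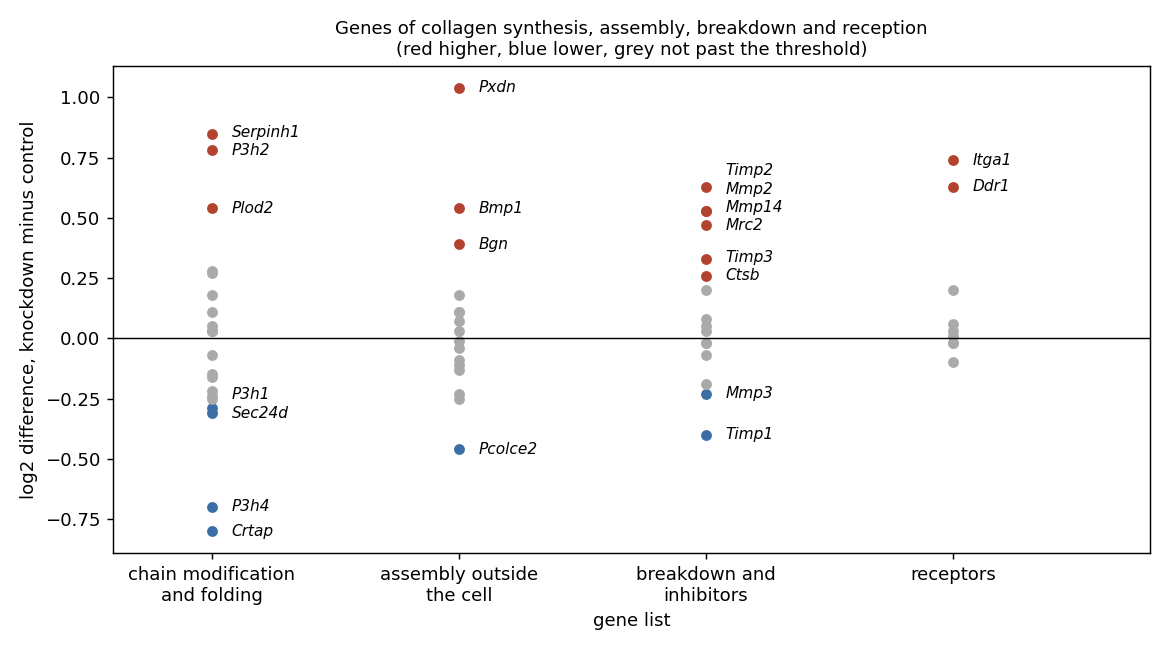
Log2 differences (knockdown minus control, y axis) of the measured genes in 4 lists around collagen (x axis), 1 point per gene, red for higher, blue for lower and grey for not past the threshold, with called genes named. Pxdn stands highest at 1.04 and Crtap lowest at -0.80.

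Markers of cell types were read beside these results. The stem cell list had means of 12.38 to 12.41 per array in knockdown and 12.61 to 12.70 in control, with Pou5f1 at 13.69 ± 0.10 and 13.93 ± 0.03 (SD, n = 3) and Nanog at 12.71 ± 0.07 and 12.57 ± 0.04, all well above the array medians of 6.07 to 6.09. Of 10 stem cell markers 6 fell, where 11.3% of all genes fell. Fgf4 fell by 0.92, Esrrb by 0.50 and Zfp42 by 0.42, and Pou5f1 fell by 0.24 in a call that was lost in 8 of 16 settings (limma adjusted p = 0.00184 to 0.11). Those 8 include leaving out any one array but Panct1 knockdown replicate 3.

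Of 12 fibroblast markers, which feeder cells would carry, 3 rose and 0 fell. That is 25%, a share near the 24.2% of all genes that passed, while 12.9% of all genes rose. List means were 5.95 to 6.00 in knockdown and 5.80 to 5.84 in control. S100a4 rose by 1.07, Twist2 by 0.61 and Mmp2, which the breakdown list also holds, by 0.53, whereas Thy1 (-0.01), Dcn (-0.09) and Twist1 (-0.12) did not pass, and Lum and Fap lay below the lower quartile on all 6 arrays. Of 7 smooth muscle markers 4 rose (57.1%), Tagln by 2.65, Cnn1 by 1.34 and Acta2 by 1.15 among them, with list means of 7.63 to 7.74 against 6.83 to 6.93. Myh11 (-0.06), Des (0.13) and Actg2 (0.14) did not pass, and Actg2 lay below the lower quartile on all 6 arrays. Without the probe sets that the array maker marks as shared between transcripts, Acta2 differed by 0.09 (limma adjusted p = 0.55).

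Of 13 trophoblast markers 9 rose and 0 fell (69.2%, against 24.2% of all genes), led by Krt19, Krt8 and Krt18 at 2.40, 2.28 and 2.22. Ascl2 (0.22), Hand1 (0.10), Elf5 (-0.19) and Tpbpa (-0.02) did not pass, and Elf5 and Tpbpa lay below the lower quartile on all 6 arrays. The list means were 8.23 to 8.26 in knockdown and 7.19 to 7.25 in control. Of 13 markers of primitive and parietal endoderm, which lays down type IV collagen, 4 rose and 3 fell (53.8%). Of all genes 12.9% rose and 11.3% fell. The endoderm list means were 7.06 to 7.09 in knockdown and 7.07 to 7.09 in control. Amn rose by 0.65 and Sparc, a collagen-binding matrix protein, by 0.34, while Lama1 fell by 0.50 and Gata6 fell by 0.40. The call for Sparc was lost with the mean of its probe sets (limma adjusted p = 0.104) and that for Gata6 without Panct1 knockdown replicate 2 (0.0537) or Luciferase control replicate 1 (0.0766). Of 8 cartilage markers only Matn3 passed (12.5%, against 24.2% of all genes), which rose by 0.54. The cartilage list means were 5.82 to 5.91 against 5.79 to 5.83. Of 7 endothelial markers Tek rose by 0.66 and Cdh5 fell by 0.36 (28.6%, near the share of all genes), with list means of 6.27 to 6.32 against 6.15 to 6.27. Cdh5 lost its call in 8 of 15 settings (limma adjusted p = 0.0105 to 0.117), among them without replicate 2 or replicate 3 of either group (0.0534 to 0.117). The part of any of these cell types in the collagen differences was not tested.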

How the data were processed

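Each sample is 1 Affymetrix mouse array, and the authors deposited a log2 signal for every probe set. Per the submitters' processing notes they used GCOS 1.4 and RMA, which corrects background, quantile-normalises and summarises probes. RMA pulls differences of dim probe sets towards 0. Signals of different genes were not compared as abundances, and precision is limited by how many arrays there are.

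Of 45101 probe sets 64 control sets were left out. Of the rest 34945 had 1 symbol in the platform annotation, updated through the gene ID with RefSeq GRCm38.p6, 932 several and 9160 none. The groups were compared with limma 3.58.1 (lmFit and eBayes, R 4.3.3) on the deposited log2 values without further scaling, two-sided, with Benjamini-Hochberg adjustment over all 18193 genes, or over 45037 probe sets where stated. Tested on simulated data made from these arrays (18193 genes, 200 of them shifted), 12% of genes shifted by 0.3 were recovered, 78% at 0.6, 94% at 1 and 100% at 2. In the real fit far more genes passed (4404), so its cut on unadjusted p was less strict. These shares are therefore not the sensitivity of the real comparison.

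All collagens are named, with every called member of 4 lists (synthesis, assembly, breakdown, receptors; for receptors the 3 smallest p), up to 3 called markers a list and Pou5f1, Nanog, Sparc, Lama1, Thy1, Dcn and Twist1. Further members named for comparison were picked with their values known. They are Ppib, P4hb, P4ha1, P4ha2, Colgalt1, Plod1, Pcolce, lysyl oxidases, Ddr2, Lum, Fap, Myh11, Des, Actg2, Ascl2, Hand1, Elf5 and Tpbpa. The members and lists were chosen with earlier results of these data known. Replicates are samples of 1 group by title, so p-values measure only how these samples vary, and that variation may be technical. No 2 arrays shared more than 3.21% of values. The 16 alternatives were a replicate block, other scalings, variance models, filters, probe set choices, adjustment, a fold minimum and leaving out each array.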

Additional observations from a re-analysis of the deposited data

How the results depend on the processing

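The collagen count of 7 was 5 to 10 in the alternatives that keep all arrays, except that it was 4 when probe sets under the median signal were left out and 3 with a minimum of 1.5-fold, and it ran from 4 to 7 when 1 array was left out. For fibrillar collagens 5 passed, 3 without those dim probe sets, 3 with the fold minimum and 3 to 5 without 1 array. Basement membrane collagens had 0 calls, and 1 with the mean of the probe sets of a gene. Of the 4 lists 21 genes passed, 8 with the fold minimum, and of all genes 4404, 1227 with it. No collagen call reversed its sign in any setting run for it. Without the dim probe sets fewer genes were tested, and the fold minimum removes small differences by construction. The replicate numbers did not pair the arrays: deviations of same-numbered arrays correlated at -0.19, -0.26 and -0.10 across genes, and no array correlated best with its own number. Knockdown replicate 1 correlated best with control replicate 2 (0.27), knockdown replicate 2 with control replicate 3 (0.28), and knockdown replicate 3 with control replicate 1 (0.21). Other differently numbered arrays correlated at -0.11 to -0.02. No block other than the number was fitted, so a pairing under other numbers was not tested. With the replicate block 5 collagens, 4 of them fibrillar, 18 list genes and 3496 of all genes passed. Median centring and repeated quantile normalisation left the median of all genes where it was. The deposited values were already quantile-normalised, so these scalings could change little and say little about dependence on scaling. In simulated data with 200 genes shifted, 12% of those shifted by 0.3 were recovered. That share is not the sensitivity of the real fit, where Col1a1 (0.28) and Col8a2 (-0.26) were called. With 3 arrays per group, the lack of a call does not show that a collagen was unaltered.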
